A study of Salmo salar with 59 samples.

Results

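Anti-Mullerian hormone (gene amh) is a secreted ligand of the TGF-beta superfamily made by the Sertoli cells of the testis, the somatic cells that surround and feed the germ cells. In mammals it makes the Mullerian ducts of the male embryo regress. Bony fishes lack these ducts, and there the hormone is known as a brake on the division and differentiation of spermatogonia and on steroid production. The ligand binds a type II receptor of its own, shares type I receptors with the bone morphogenetic proteins, and signals through SMAD proteins.

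The array carried 1 probe for amh among its 42386 probes, which were matched to 25270 RefSeq genes. The probe was chosen by its transcript identifier, which names the gene amh (RefSeq gene 100136452) on the Ssal_v3.1 assembly. The gene itself was chosen with earlier results of these data known. It was followed in 59 RNA samples of male Atlantic salmon post smolts, 20 from testis, 20 from pituitary and 19 from adipose tissue, each from 1 fish and on 1 one-colour array. All fish were held for 18 weeks in brackish water with a mean salinity of 20 ppt and a mean temperature of 12.1 °C. Light was continuous in group A, increasing in group B and decreasing in groups D and E, and group E alone received a low-fat diet. The labels give the developmental stage of each testis. The 6 pubertal fish were at stage III, IV or V, with 3 fish in group B and 3 in group A. The 14 immature fish were at stage I, with 2 fish in group B, 2 in group A, 5 in group E and 5 in group D. No pubertal fish came from groups D and E. The adipose labels carry no stage, so adipose tissue was grouped by light only, with 5 fish in group B, 5 in group A, 4 in group E and 5 in group D. The labels conflict at 2 points. The immature testis titled fish 226 of group E has another fish number in its identity field, and 1 adipose sample of group E carries the number of a group B fish.

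Levels are given on a log2 scale as the processed signal of the amh spot over the 75th percentile of the same array, so that 0 stands for that percentile and each step of 1 for a doubling. The 75th percentile itself was a signal of 153 to 340 on pubertal and 161 to 479 on immature testis arrays, and 65.6% to 86.6% and 66.5% to 84.1% of their spots were well above background. The amh spot was well above background on all 20 testis arrays, was saturated on none and carried no outlier mark. An array labelled as pituitary, that of the pubertal fish 184, stood apart from the other pituitary arrays with a median correlation of 0.749. The 7 matched pituitary markers summed to 0.340 there (in multiples of the array's 75th percentile), against 1368 to 2765 on the other 19 pituitary arrays. Among the immature testes the array of fish 160 had the lowest median correlation with the rest, 0.944.

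amh was 16.3-fold lower in pubertal than in immature testes. The log2 level was 3.40, 1.92 and 0.72 in the pubertal testes of fish 184, 190 and 245 from group A. It was 1.63, 0.63 and 0.39 in those of fish 213, 211 and 202 from group B. In immature testes it was 6.83 and 3.77 in fish 203 and 160 of group B and 6.67 and 5.33 in fish 188 and 250 of group A. In group E it was 6.41, 5.46, 5.42, 5.04 and 4.79 in fish 221, 240, 236, 233 and 226. In group D it was 6.26, 5.32, 5.24, 5.18 and 4.97 in fish 255, 193, 180, 176 and 198. The groups did not overlap, and the highest pubertal testis, that of fish 184, lay just below the lowest immature testis, that of fish 160.

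The mean log2 level was 1.45 ± 1.13 in pubertal (SD, n = 6) and 5.48 ± 0.82 in immature testes (SD, n = 14). The log2-ER, the log2 expression ratio of pubertal over immature testes, was -4.03 (standard error 0.42, 95% interval -4.90 to -3.15, limma adjusted p = 3.75e-08). In linear terms this is 8.90-fold to 29.9-fold lower. The interval rests on the fish of the study, since each sample is 1 fish. Lower calls were common in this comparison. Of the 35618 probes tested, 27.2% were called lower and 31.9% higher in pubertal testes. In 12.1% every pubertal fish lay below every immature fish. Calls needed an adjusted p under 0.05 and a log2-ER beyond 0.8, the ratio limit of the study for high or low specific activity. The study paired that limit with p under 0.05 and names no adjustment. A more negative log2-ER than that of amh was found for 0.685% of the probes. The median log2-ER over all probes was 0.29 under this scaling and -0.14 in the authors' processed values, and relative to this median amh was at -4.32 and -4.46. With the authors' scaling 67.1% of all calls were lower, against 46.1% with the scaling used here.

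**Figure D1:**
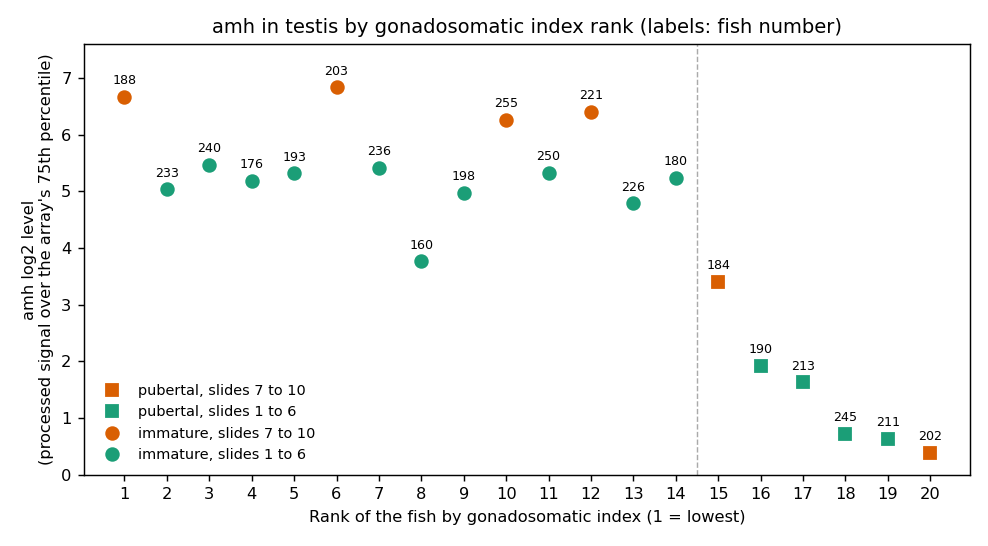
Log2 level of amh in testis (y axis, signal over the 75th percentile of the array) against the rank of the fish by gonadosomatic index (x axis, 1 is the lowest). Squares are the 6 pubertal and circles the 14 immature fish, and colour marks the slides. Levels drop with every step among the pubertal fish, and the 4 highest immature fish are those on slides 7 to 10.

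Whether amh follows testis growth was examined along the gonadosomatic index (GSI), the weight of the gonads as a share of body weight, which was used only as the rank order that the study gives. Among the 14 immature fish, whose testes all stay small, the correlation of the log2 level with this order did not pass the test (Pearson r = -0.160, permutation p = 0.588, Spearman rho = -0.209, permutation p = 0.475). Without fish 188 and 180, the 2 farthest from the median order, r was 0.0658. Among the 6 pubertal fish the level was lower at each step up the order, 3.40, 1.92, 1.63, 0.72, 0.63 and 0.39, and Spearman's rho was -1.0 (exact permutation p = 0.00278, the smallest that 6 fish can give). With scaling to the median and with the authors' values rho was -0.943 (exact permutation p = 0.0167). Pearson's r was -0.937 (exact permutation p = 0.00278), and after Benjamini-Hochberg adjustment over the 2 fish groups both p-values were 0.00556. Without fish 184 and 202, at the ends of the order, r was -0.952, but 4 fish cannot give a p below 0.0833. Across the pubertal fish the level thus spanned 3.02 on the log2 scale, and 1.53 without fish 184. Across the immature fish it spanned 3.07, and 2.04 without fish 160.

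The order of the pubertal fish is not free of the other labels. The fish of light group B held places 3, 5 and 6 in the order. By the labels the stage was IV in 4 of the 6, III in fish 213 and V in fish 202. The study's histology table differs from these labels. By the most advanced germ cell it gives stage V for fish 245, 211 and 202, at the high end of the order. By the dominating germ cell it gives stage II for fish 184 and stage III for the other pubertal fish. Scan day also runs with it in part, because fish 184, at the low end, was the 1 pubertal testis read on scan day 4. The 5 pubertal testes of scan day 1, from 1.92 to 0.39, stood in the same descending order.

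The immature testes were also split between slides 1 to 6 and slides 7 to 10, a cut chosen after the levels were seen. Of the pubertal testes, that of fish 184 on slide 7 had the highest level, 3.40, and that of fish 202 on slide 9 the lowest, 0.39. The 4 immature testes on slides 7 to 10, of fish 188, 203, 221 and 255, had the 4 highest amh levels, 6.54 ± 0.26 (SD, n = 4), against 5.05 ± 0.50 (SD, n = 10) on slides 1 to 6. They came from all 4 light groups, and the 75th percentile of their arrays, 357 to 472, lay within the range of the other 10, 161 to 479. Of these testes, 3 were read on scan day 4 and averaged 6.45 ± 0.21, against 5.21 ± 0.71 in the 11 read on scan day 1. That difference was 1.23 (95% interval 0.38 to 2.09) and did not pass the threshold over all probes (limma adjusted p = 0.175), where 0.439% of probes were called. Within scan day 1 the log2-ER of amh was -4.16 (adjusted p = 3.46e-08). Within scan day 4, with fish 184 against 3 immature fish and the lone fish assumed to vary like the others, it was -3.04 (adjusted p = 0.00553, which holds no spread of the pubertal side). The order within the immature fish of scan day 1 gave r = -0.199 with GSI (permutation p = 0.577, n = 11).

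**Figure D2:**
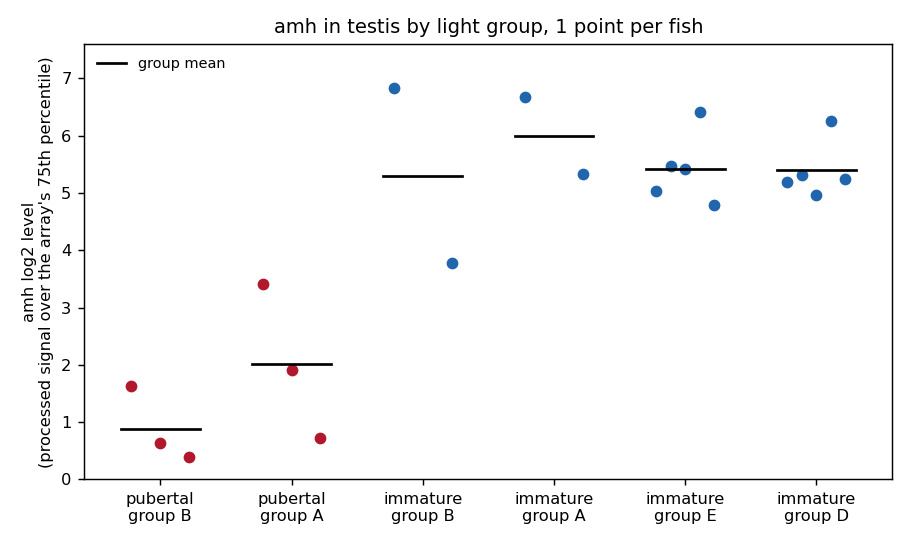
Log2 level of amh in testis (y axis) by maturity and light group (x axis), with 1 point per fish and a line at each group mean. The pubertal groups B and A overlap, and the 4 immature groups overlap with each other.

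Light regime and diet were compared within each maturity class, because maturity itself differs between the regimes. Among pubertal fish the log2 level was 1.63, 0.63 and 0.39 in group B (increasing light), against 3.40, 1.92 and 0.72 in group A (continuous light), and the groups overlapped. The difference, group B minus group A, was -1.13 (95% interval -2.78 to 0.52, limma adjusted p = 0.982). It was -0.43 without fish 184. No probe of 32493 was called in this comparison (0%), and 511 had an unadjusted p under 0.05. Among immature fish under decreasing light, amh averaged 5.42 ± 0.62 with the low-fat diet of group E and 5.40 ± 0.50 with the common feed of group D (SD, n = 5 each). The difference of 0.03 had a 95% interval of -0.68 to 0.74 (limma adjusted p = 0.99998), with 0% of 34090 probes called and 917 at an unadjusted p under 0.05.

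The 4 immature fish of groups A and B spread more widely than the 10 of groups D and E. They averaged 5.65 ± 1.42, against 5.41 ± 0.53, a difference of 0.24 (95% interval -0.74 to 1.22, limma adjusted p = 0.939). Here too 0% of 35576 probes were called, and 1737 had an unadjusted p under 0.05. These 4 fish hold the 2 highest amh levels of all testes, in fish 203 and 188, and the lowest of the immature testes, in fish 160. Without fish 160 the difference was 0.87, and without fish 188 or 203 it was -0.10 or -0.16. The study names fish 160 and 250 among the immature fish as possibly maturing, by serum hormones and the expression of pituitary genes. Without both the difference was 1.34 (95% interval 0.55 to 2.13, unadjusted p = 0.00295 and adjusted p = 0.781 from limma). This leaves fish 188 and 203 in groups A and B, which both lie on slides 7 to 10. In the study's histology table, fish 203 and 160 are the fish with tubules and high cell division. Its histology figure marks tubules in fish 160 and 250. Among the fish of groups A and B alone, blocked by light regime, the log2-ER of pubertal over immature testes was -4.20 (adjusted p = 0.00105).

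**Figure D3:**
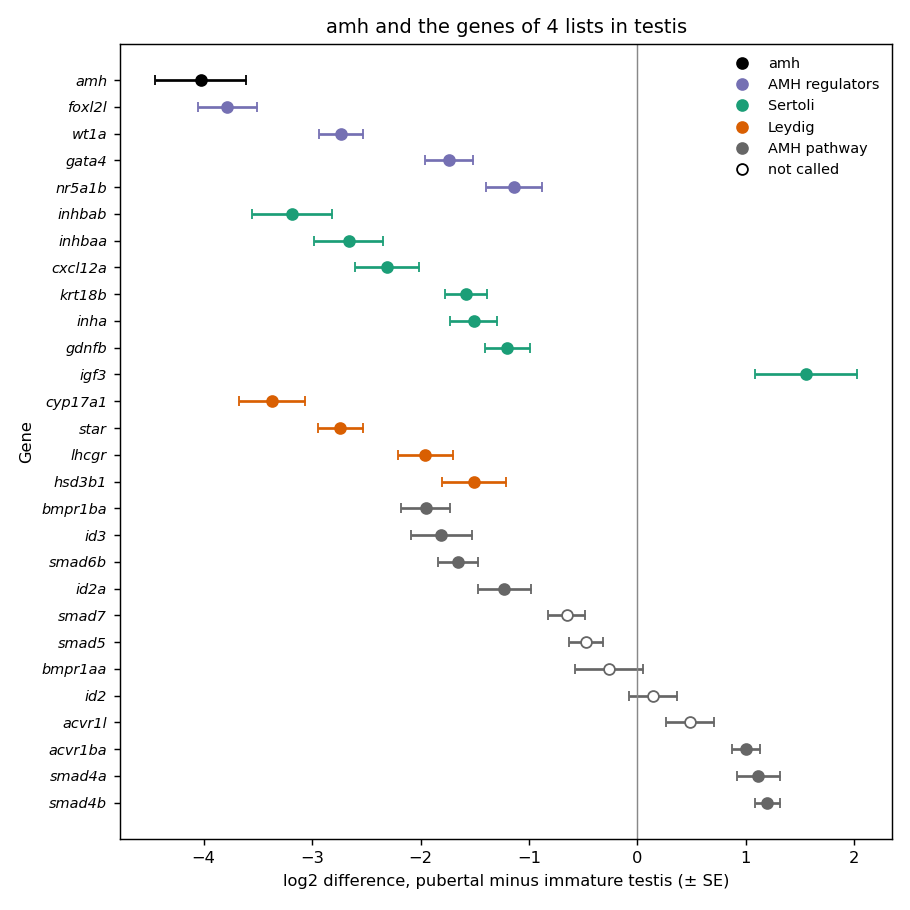
Log2 difference of pubertal minus immature testis (x axis, points with standard errors) for amh and the matched genes of 4 lists (y axis). Filled points passed the threshold and open points did not, and genes of several lists (wt1a, gata4, nr5a1b) are drawn once, with the regulators. amh has the most negative value of the genes shown, and igf3 is the 1 gene of the Sertoli list on the positive side.

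The other genes of the Sertoli list were mostly lower as well, but by less than amh. Of 9 matched genes, 8 were called lower and 1 higher, with a median log2-ER of -1.74, beside 0.29 over all probes tested and the 27.2% called lower and 31.9% called higher. With normexp 6 were called lower, beside 12.1% of all probes. Inhibin alpha (inha), a subunit of the hormone that restrains follicle-stimulating hormone, had a log2 level of 4.76 ± 0.72 in pubertal and 6.27 ± 0.28 in immature testes. The study places the inhibins of salmonid testes in the interstitial compartment, between the tubules, and Sertoli cells in the germinative compartment. The inhibin beta A genes inhbab and inhbaa had log2-ERs of -3.19 and -2.66, and the call of inhbaa was lost with normexp (-0.60, adjusted p = 0.0559). The transcription factors wt1a and gata4, which control gonad development, were at -2.73 and -1.74, and the chemokine cxcl12a at -2.31. Keratin 18 (krt18b) and the growth factor gdnfb, which in mammals maintains spermatogonial stem cells, were at -1.58 and -1.20, and the call of gdnfb was lost with normexp (-0.70). The exception was igf3, a fish-specific insulin-like growth factor that stimulates spermatogonia, which rose by 1.56 (adjusted p = 0.00566). Its call was lost with the authors' values (1.02, adjusted p = 0.0554).

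Whether amh differed more between the groups than these genes was tested within fish, on the log2 level of amh minus that of the other gene, with a two-sided exact permutation test of the 6 against the 14 fish. Against inha this difference was -3.31 in pubertal and -0.80 in immature testes, a change of -2.52 (exact p = 5.16e-05, 9.29e-05 adjusted over the 9 comparisons). The changes were -2.29 against gata4, -2.45 against krt18b and -2.83 against gdnfb. Against cxcl12a the change was -1.72 (adjusted exact p = 0.00775) and against wt1a, -1.30 (adjusted exact p = 0.00481). Against inhbaa, which was well above background on 4 of the 6 pubertal arrays, the change was -1.37 (adjusted exact p = 0.000658), and with normexp it was -3.33. Against inhbab the change was -0.84 and did not pass (adjusted exact p = 0.0608), although it was -1.79 with normexp background correction (adjusted exact p = 0.00111). The gene igf3, which moved the other way, gave -5.59. The gene amh and these comparisons were chosen with results of these data known. The study itself names amh among the reproduction genes with the largest differences. These p-values are therefore given as a description only.

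All 4 genes matched by symbol to a list of amh regulators were called lower in pubertal testes, beside 27.2% of all probes. In mammals WT1, GATA4 and SF-1 activate the amh promoter, and besides wt1a and gata4 the list held nr5a1b, a salmon gene of the SF-1 family, at -1.13 (adjusted p = 0.000547). The call of nr5a1b was lost with normexp, at -0.54 (adjusted p = 0.0671). The gene foxl2l, a paralog of the ovarian factor foxl2 and not that gene itself, had the largest fall of the 4. It was taken by the matching of symbols, and whether it regulates amh was not tested. Its log2 level was -4.01 ± 0.95 in pubertal and -0.22 ± 0.32 in immature testes, a log2-ER of -3.78 (adjusted p = 2.06e-10).

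The downstream part of the pathway showed no common direction. Of 13 matched genes, 12 were tested, and 4 were called lower and 3 higher, shares close to the 27.2% and 31.9% of all probes. With the authors' values 6 were called lower and 0 higher, beside 29.8% of all probes lower and 5185 of 35491 higher. Among the type I receptors, bmpr1ba had a log2 level of 0.07 ± 0.83 in pubertal and 2.02 ± 0.19 in immature testes, a log2-ER of -1.95 (adjusted p = 1.72e-07). The values of bmpr1aa, -0.26, and acvr1l, 0.48, did not pass. The gene acvr1ba, which the matching of symbols also took, belongs to the activin receptors. It rose by 0.9998 here, and its call was lost with quantile normalization and with the authors' values. The signal carrier smad5 was at -0.47 and was not called, but it was called lower with quantile normalization and with the authors' values (-0.86 and -0.87). The shared partners smad4b and smad4a rose by 1.20 and 1.12, but with the authors' values neither was called, at 0.73 and 0.65. The inhibitory SMAD smad6b fell by 1.66, while smad7, at -0.65, stayed within the limit. With the authors' values smad7 was called lower, at -1.12. Of the ID genes, targets of bone morphogenetic protein signalling that keep cells undifferentiated, id3 and id2a fell by 1.81 and 1.23, and id2 was at 0.14. The call of id2a was lost with normexp, at -0.50 (adjusted p = 0.0851). The type II receptor gene amhr2 and, in the Sertoli list, gsdf were matched to no probe and were not analysed here.

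Among relatives of amh in the TGF-beta superfamily, 11 ligands or subunits were matched and 10 tested, of which 6 were called lower and 0 higher, beside 27.2% and 31.9% of all probes. With normexp, 4 were called lower, without inhbaa and bmp15, beside 12.1% of all probes. The steepest after inhbab was bmp2 at -2.95, with tgfb1a at -2.42. The call of bmp15, an oocyte factor that was well above background on 0 of the 6 pubertal arrays, was also lost with the authors' values. The values of bmp4, bmp6, gdf9 and ndr1 were -0.66, -0.72, -0.46 and 0.60 and did not pass. With the authors' values bmp4 and bmp6 were called lower, at -1.18 and -1.20. In all, 7 of the 10 ligands were then lower, beside 29.8% of all probes. Next to amh on the assembly lies dot1l, a histone methyltransferase gene, which rose by 1.86 (adjusted p = 8.95e-05), and 3 places to the other side lies peak3, at 0.42 (adjusted p = 0.397).

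Markers of several other testicular cells differed between the groups along with amh. In multiples of the 75th percentile, the 5 meiotic markers summed to 23.8 to 147 in pubertal and 4.24 to 5.98 in immature testes, and all 5 were called higher. The 5 matched Leydig cell genes, which make androgens, summed to 3.80 to 13.9 in pubertal and 20.2 to 60.4 in immature testes, and all 5 were called lower (4 with normexp). The 3 leukocyte markers summed to 2.60 to 8.78 in pubertal and 27.6 to 85.1 in immature testes, all 3 called lower. Among them cd3e was well above background on 1 of the 6 pubertal arrays, and its call was lost with normexp (-0.65). The Sertoli genes without amh summed to 26.7 to 84.4 in pubertal and 104 to 167 in immature testes. Not all of them are limited to testis. In immature testes krt18b, gdnfb and igf3 averaged 4.77, -1.42 and -1.64, against 4.94, -1.46 and -0.98 in immature pituitaries. The others were lower in pituitaries, but cxcl12a averaged 0.10 in immature testes against a median of 2.63 on the adipose arrays other than that of fish 202. The shares over all probes were 27.2% called lower and 31.9% higher, and with normexp 12.1% were called lower. None of these 4 sums overlapped between the groups. The 5 spermatogonial genes summed to 207 to 310 in pubertal and 86.3 to 137 in immature testes, with 2 called higher, 2 lower and 1 not called. Most of this sum was ddx4, with a mean log2 level of 7.88 in pubertal and 6.63 in immature testes. The genes ddx4 and dazl were called higher, at 1.26 and 1.22, and dnd1 and gfra1a lower, at -1.66 and -1.26. With the authors' values 0 were called higher and 2 lower, beside 5185 of 35491 probes higher and 29.8% lower. The 4 oocyte genes overlapped, with sums of 0.170 to 1.35 in pubertal and 0.376 to 1.1 in immature testes. The part of these cells in the fall of amh was not tested. The samples are bulk tissue, in which fewer cells of a type and less RNA per cell cannot be told apart.

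The genes most like amh were found by Pearson's correlation of log2 levels, over 7363 probes with a gene symbol that were well above background on at least 6 testis arrays. Over the 20 testes the closest was emp2, a gene for an epithelial membrane protein, with r = 0.976 and a log2-ER of -3.47. Next came tapbp, pkha1, phf6, arl4ca, strbp, aadacl4, dusp22a, tmem79a and wscd2, with r down to 0.964. The mirror images were tvp23b, brms1la, cg057, ndufb4 and dynlt2b, with r of -0.977 to -0.974. All 20 testes share the difference between pubertal and immature fish, and 439 probes had r over 0.9 and 552 below -0.9. Within the 14 immature testes the 10 closest genes had r of 0.623 to 0.899. Of them, emp2 and arl4ca kept the highest correlation with amh within the 14 immature testes, 0.899 and 0.898.

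Within the immature testes a different set came first. The closest was tspan3a, a tetraspanin gene, with r = 0.968 (n = 14), followed by rps8a, rpl17, rplp1, s27a2, zn330, map4k4, rpl8, rl15 and rpl22l1. Of the 10, 6 are named for ribosomal proteins, and their r with amh over the 20 testes was -0.241 to 0.119. The farthest were cf166, lig3, tmed7, adss2 and dnal1, with r of -0.951 to -0.926. A set of 48 ribosomal protein probes, put together after these values were seen, had a median r of 0.754 with amh across immature testes, beside -0.0248 over all candidate probes. The same probes were higher on slides 7 to 10 than on slides 1 to 6, by a median of 0.49 with 41 of 48 higher, beside -0.01 over all candidates. The level of rps8a, for example, averaged 7.97 on slides 7 to 10 and 7.03 on slides 1 to 6. Slides 7 to 10 hold the immature testes highest in amh, so these slide differences restate the correlation with amh. These immature arrays share their slides and scan days, and the correlation is given as a description. On scan day 1 alone, r was 0.967 for tspan3a and 0.952 for rps8a (n = 11).

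**Figure D4:**
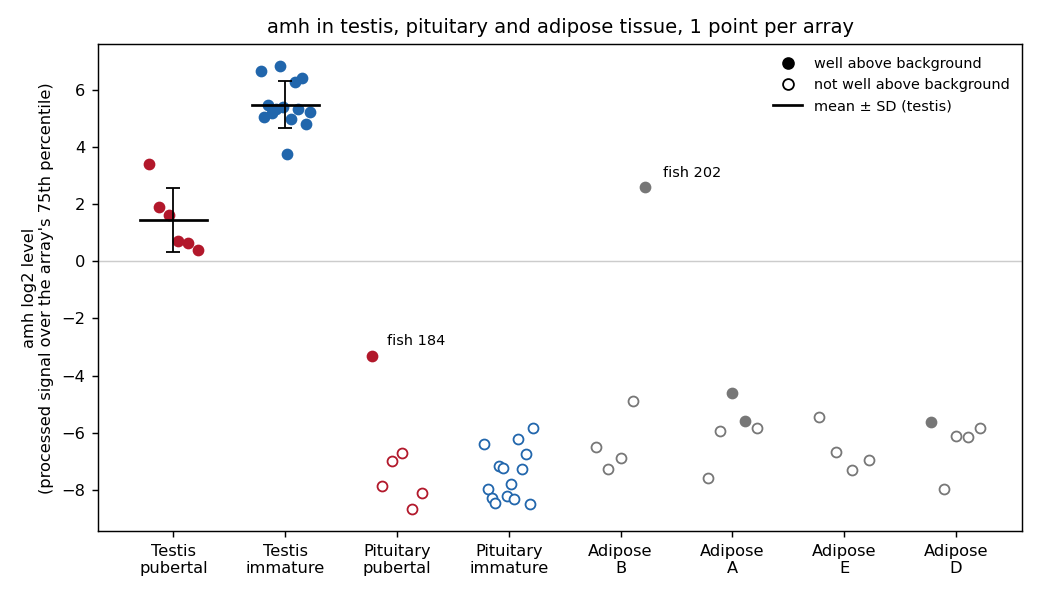
Log2 level of amh (y axis) on all 59 arrays by tissue and group (x axis), with 1 point per array, filled where the spot was well above background and open where it was not. Lines and bars are the mean and SD of the 2 testis groups. Testes lie above 0, and nearly all pituitary and adipose arrays lie below -4.5, apart from the adipose array of fish 202 and the pituitary array of fish 184.

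Outside the testis amh was hardly measured at all. In pituitary the spot was well above background on 0 of the 14 immature arrays and on 1 of the 6 pubertal arrays, that of fish 184, where it read -3.30. The other 19 pituitary arrays read -8.68 to -5.83. Against the dim side of the measured range, the mean level in immature testes was about 3043-fold higher than in immature pituitaries with the processing used here. The measured means were 5.48 and -7.46. This approximate bound takes for each pituitary array the lowest signal well above background, or the amh reading where that was higher. It is no strict lower limit, since a spot not well above background can read above that lowest signal. It does not carry over to other processing, since the log2 bound is 11.6 and the measured log2 difference with normexp was 7.70. Of 33939 probes tested with limma, 23% were called higher in testis. The amh probe passed this filter through its testis arrays alone, so its own call was fixed beforehand and no p-value is given. The same approximate bound for pubertal testes over the 5 pubertal pituitaries without fish 184 was 215.5-fold. Pubertal and immature pituitaries were not compared by a test, because the probe did not pass the filter.

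The effect of maturity on amh in testis minus that in pituitary was -3.81 (95% interval -5.07 to -2.55, limma interaction without the pituitary of fish 184, adjusted p = 2.53e-06). Such differences were called for 52% of 38277 probes. The probe entered this fit through its testis arrays alone, with 0 of the 19 pituitary arrays well above background, so the value restates the testis difference and gives no maturity effect for the pituitary. The pituitary array of fish 184 lacked the pituitary hormones, as given above. Its adipocyte markers summed to 49.0, against 6.27 to 13.2 on the other pituitary arrays. Most of this sum was cebpa, which read 5.49, against at most 0.40 on the others. The array held the highest pituitary level of 5 of the 7 adipocyte markers. However, fabp4 read -3.94, against at most 3.41 on the others, and plin1 was not well above background (-6.26). The leukocyte markers of this array summed to 101, against 16.96 to 44.6. Most of that was cd74a, at 6.56 against at most 5.46. Genes of other lists peaked on this array too. It held the highest pituitary level of 4 of the 5 spermatogonial, 4 of the 9 Sertoli, 2 of the 5 Leydig cell and 1 of the 5 meiotic genes. The share over all probes is not given for this array. Its 75th percentile, to which these levels are scaled, was a signal of 98.7, against 141 to 615 on the other pituitary arrays. Of the 4 genes matched to the regulator list, gata4 and wt1a read 4.30 and -0.92, against at most -4.16 and -3.82 on the other pituitary arrays. The other genes of that list, foxl2l and nr5a1b, were not well above background on the array of fish 184. Whether these signals go with the amh signal of this array was not tested.

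In adipose tissue the spot was well above background on 4 of 19 arrays. The readings of 3 of them were low, -4.60 and -5.60 in fish 184 and 190 of group A and -5.63 in fish 176 of group D. In group E, with 0 of 4 arrays well above background, the same approximate bound for testes over adipose tissue was 1008.5-fold. For groups E and D together, where 1 of the 9 adipose arrays measured the gene, this bound was 1323.0-fold. These bounds too are no strict limits and hold only for the processing used here. For groups E and D the log2 bound is 10.4, and the measured log2 difference with normexp was 6.80. With limma 25.5% of 33310 probes were called higher in testis. The amh probe passed this filter through its testis arrays, so its own call was fixed beforehand and no p-value is given. The measured means were 5.41 in testes and -6.45 in adipose tissue. Diets were not compared in adipose tissue, since the probe did not pass the filter there.

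The fourth adipose array, that of fish 202 in group B, read 2.59. The other 18 adipose arrays read -7.96 to -4.60, and the other 4 of group B -7.28 to -4.89. The level in this adipose sample was above those in 5 of the 6 pubertal testes, that of the same fish included (0.39).

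**Figure D5:**
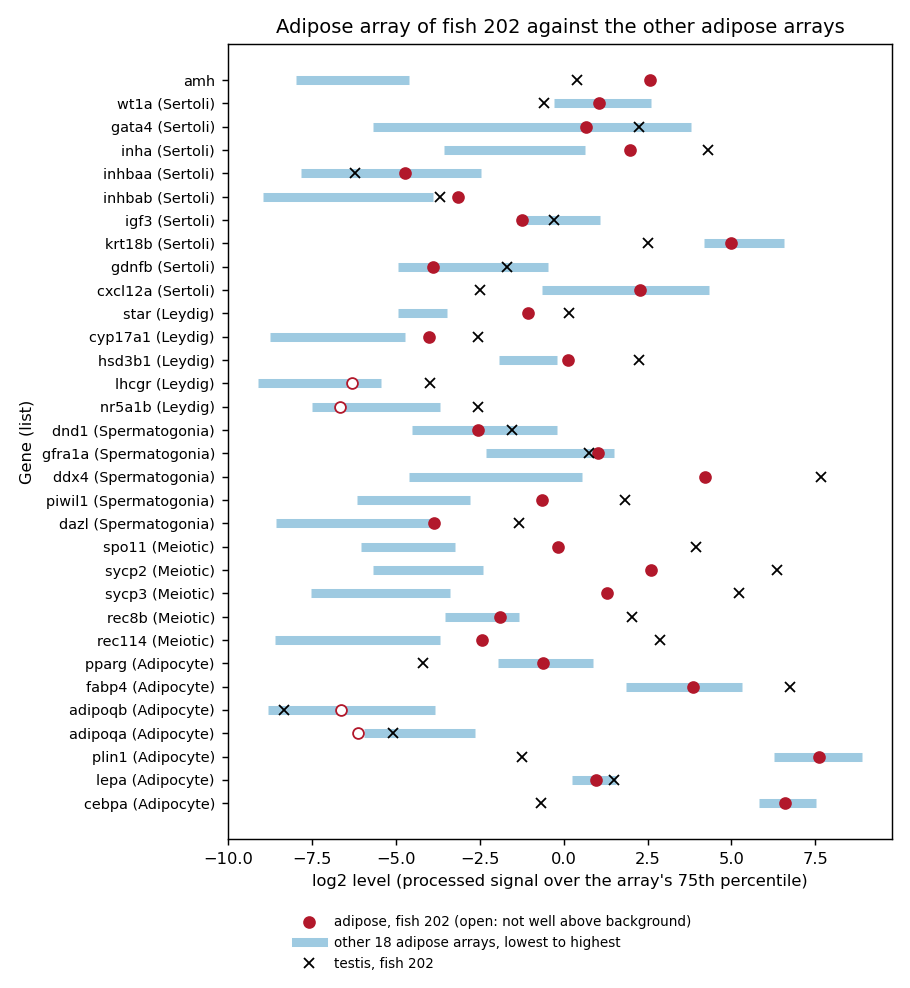
Log2 levels (x axis) of amh and the genes of 5 marker lists (y axis) in the adipose array of fish 202 (circles), in the other 18 adipose arrays (bars from the lowest to the highest) and in the testis of fish 202 (crosses). Several germ cell and Leydig cell genes lie to the right of the bars, and the adipocyte genes lie within or near them.

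Other genes of the testis were high on the same adipose array. It held the highest adipose level of 4 of the 5 meiotic markers, 3 of the 5 Leydig cell genes, 2 of the 5 spermatogonial genes and 2 of the 9 Sertoli genes. Over all probes this array held the highest adipose level in 7.11%. The germ cell helicase ddx4 read 4.22, against at most 0.54 on the other adipose arrays. The synaptonemal complex genes sycp2 and sycp3, which act in meiosis, read 2.61 and 1.30, against at most -2.40 and -3.38. Inhibin alpha read 1.99, against at most 0.63. In sums, the meiotic markers reached 9.92 on this array, against 0.214 to 0.627 on the other adipose arrays, and the spermatogonial markers 21.6, against 0.583 to 3.56. The adipocyte markers summed to 310, within the 140 to 633 of the other adipose arrays, and the Sertoli sum of 44.7 was within 39.4 to 116. Most of that Sertoli sum was krt18b, which read 4.98 on this array and 4.18 to 6.57 on the other adipose arrays.

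In the testis of fish 202, sycp2 and sycp3 read 6.37 and 5.23 and ddx4 stood higher than in its adipose tissue, while amh stood lower. In immature testes, sycp2 and sycp3 averaged 1.46 and 0.47, below their levels on this adipose array. The array lay on slide 8 beside the immature testes of fish 188 and 221, with amh at 6.67 and 6.41, and beside another adipose array on which amh was not well above background (-5.44). What brought these signals to the adipose array of fish 202 was not tested.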

How the data were processed

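RNA from testis, pituitary and adipose tissue was measured on 59 one-colour Agilent arrays. The authors deposited the scanner intensity of each spot, background-subtracted and detrended within the array by Agilent Feature Extraction 12.0.1.1 and not scaled between arrays, and a table of processed intensity values of the same arrays, whose scaling is not stated and which correlated at 0.981 to 0.998 with the scanner values on the log2 scale. The study's data system is described as STARS.

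Here log2 of the processed intensity minus the 75th percentile of the 42438 spots that were not controls was used. Outlier spots were left out and duplicates averaged. Probes were named through RefSeq transcripts of Ssal_v3.1, and 60.0% matched a gene. Fits used limma 3.58.1 in R 4.3.3 (lmFit and eBayes, two-sided) with p-values adjusted by Benjamini-Hochberg across all probes entering the fit, those well above background on no fewer arrays than the smaller group counts. Calls required adjusted p below 0.05 together with a log2 difference beyond 0.8, a fold of 1.74. The methods' t-test was an alternative. Correlations used permutation tests (100000 resamples, exact for 6 fish) in Python 3.11 with scipy 1.17.1. The main fits of pubertal against immature testes and of the light groups in testis were tested on simulated data, and the other fits were not. The same fish gave testis, pituitary and adipose samples by their labels, so fish number pairs the tissues. The mean within-fish correlation over probes was 0.0910 between testis and pituitary.

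The gene and the lists were chosen with earlier results of these data known. Named were amh, the list genes matched by symbol (the brightest probe of each), and the 10 genes most like and 5 least like amh over all testes and over immature testes. The 16 slides and 4 scan days come from the file headers. The slides are numbered by their header code and the scan days in order of time. The number of arrays limits the precision.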

Additional observations from a re-analysis of the deposited data

Results flagged for a closer look

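Of the 10 sets of 4 to 10 arrays examined, 4 held an amh value that lay far from the others of its set by Dixon's test at the 95% level, which chance gives for about 1 in 20 sets.

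The highest adipose array of group B, that of fish 202, read 2.59 with a gap of 0.758 of the range. The lowest of group D, fish 193, read -7.96 (gap of 0.770 of the range), in a set where 1 of 5 arrays was well above background. Among pubertal pituitaries, fish 184 read -3.30 (gap of 0.637 of the range), and all the others were not well above background. Among the immature testes of group D, fish 255 read 6.26 (gap of 0.730 of the range), and it was the 1 array of that set read on scan day 4.

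The maturity effect on amh differed between testis and pituitary by -3.81 (limma interaction, adjusted p = 2.53e-06). The probe was well above background on 0 of the 19 pituitary arrays used and entered the fit through testis alone, so the value restates the testis difference.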

How the results depend on the processing

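The log2-ER of amh in testis stayed called and negative in all 33 alternatives tried, from -4.60 with the authors' values to -3.04 within scan day 4, where the pubertal side is 1 fish, and from -4.42 to -3.82 when 1 fish was left out. The number of probes called lower was 9697, and 4313 with normexp. The GSI order of immature fish turned to r = 0.0658 without the 2 fish at the ends, and in pubertal fish r = -0.952 no longer passed there (exact p = 0.0833). Group E minus group D changed sign with normexp, to -0.13, and ranged from -0.22 to 0.24 when a fish was left out. Groups A and B minus groups D and E ranged from -0.16 to 0.87 when 1 fish was left out and was 1.34 without fish 160 and 250 (adjusted p = 0.781). Group B minus group A ranged from -1.78 to -0.43. None of these light comparisons was called in any alternative. The causes were not tested. With fish as a replicate block in the paired tissues, testis minus pituitary was 12.9, testis minus adipose tissue 11.9 and the difference of maturity effects -3.85, and no call changed. The probe entered these fits through testis, so their calls say little about stability. Tissue differences were 7.70 and 6.80 with normexp, since the dim side sets their size. Both lie below the log2 bounds of 11.6 and 10.4 from the main processing, so those bounds do not hold with normexp. The tests of amh against gsdf, of pituitaries and of diets in adipose tissue were not run, as gsdf was not matched and amh did not pass the filters. The comparison of scan days and the split of slides among immature fish were chosen after seeing the data. So were the GSI order and light groups by scan day, the comparisons with Sertoli genes and the ribosomal set. Signals near background limit every value outside the testis.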
